A study of Homo sapiens with 32 samples.

Results

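The miR-30 family was followed in small RNA counts from clones of 293T, a readily transfected line from human embryonic kidney that expresses the large T antigen of SV40. Its members were chosen by name: the 5 rows mir-30a, mir-30b, mir-30c, mir-30d and mir-30e, out of 1513 miRNA rows. Rows whose hairpins lie at a common locus were then compared as partners, mir-30b with mir-30d, mir-30c with mir-30e, and mir-30a with mir-30c. The 32 libraries came from 8 clones. Clones 52, 55, 57 and 67 carried the genotype label WT, and clones 30, 34, 42 and 43 the label DGCR8 delta103-126Q, which stands for a prime-edited gene without the reported contact site for the protein ERH. They are called wild-type and deletion clones here. Every clone was transiently transfected with each of 4 vectors, control shRNA_1 and control shRNA_2, which have no intended target, and shERH_1 and shERH_2 against ERH. All cells were selected with puromycin, and those showing the fluorescence encoded by the vector were sorted on day 5. Each clone gave 1 library per vector, so a group of 1 genotype and 1 vector held 4 libraries.

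A miRNA is cut from a hairpin in a longer transcript. The Microprocessor, made of the nuclease DROSHA and its RNA-binding partner DGCR8, releases the hairpin in the nucleus, and DICER then trims it to a duplex of a 5p and a 3p arm. ERH is a small nuclear protein reported to bind the N-terminal part of DGCR8 and to help the Microprocessor with hairpins that it processes poorly alone. The miR-30 family is abundant in kidney epithelium, where its members are known to restrain genes of the mesenchymal state. Target choice rests mainly on the seed, bases 2 to 8 of the mature arm, which the 5p arms of the family share.

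The sequences below show what the rows have in common and where they part. They come from RefSeq (GRCh38.p14), which supplied mir-30a, mir-30c and mir-30e, and the seed is in capitals.
hsa-miR-30a-5p: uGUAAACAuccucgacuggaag
hsa-miR-30e-5p: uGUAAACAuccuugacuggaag
hsa-miR-30c-5p: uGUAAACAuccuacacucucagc
Counted from the 5′ end, hsa-miR-30a-5p and hsa-miR-30e-5p differed by 1 substitution, C13U. Against hsa-miR-30a-5p, hsa-miR-30c-5p had 5 substitutions, C13A, G14C, G18C, G19U and A20C, and was 1 base longer. Of the 2370 mature names in the table these 3 held the seed. The sequences of miR-30b and miR-30d were not used here and are not in that count. As background, miR-30b is classed with miR-30c by the second part of its 5p arm, and miR-30d with miR-30a and miR-30e. The hairpins, which are what the Microprocessor handles, are shown with both mature arms in capitals.
MIR30A hairpin: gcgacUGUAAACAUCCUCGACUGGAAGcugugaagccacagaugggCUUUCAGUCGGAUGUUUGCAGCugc
MIR30E hairpin: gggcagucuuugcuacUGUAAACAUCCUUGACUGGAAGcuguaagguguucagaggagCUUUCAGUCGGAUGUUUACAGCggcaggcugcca
MIR30C1 hairpin: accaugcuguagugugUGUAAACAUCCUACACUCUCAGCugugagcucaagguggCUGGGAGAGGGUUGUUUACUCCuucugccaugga
MIR30C2 hairpin: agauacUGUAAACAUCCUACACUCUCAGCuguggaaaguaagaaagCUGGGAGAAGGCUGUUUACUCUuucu
MIR30C1 and MIR30C2 give the same 5p arm, and their 3p arms differed at 3 positions (G9A, U12C and C22U). The 3p arms of MIR30A and MIR30E differed by 1 substitution, G18A.

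MIR30A lies on chromosome 6 from 71403551 to 71403621 and MIR30C2 from 71376960 to 71377031, both on the minus strand, with 26519 bases between them. Each falls in introns of the long non-coding RNAs LINC00472 and AL136164.2 in GENCODE 29 (GRCh38). MIR30E, on chromosome 1 from 40754355 to 40754446, and MIR30C1, from 40757284 to 40757372, lie 2837 bases apart on the plus strand in introns of NFYC, which encodes a subunit of a CCAAT-binding transcription factor. From its name, the row mir-30c is taken to sum both of its hairpins and both arms. It would then share only part of its source with mir-30e and part with mir-30a.

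MIR30B and MIR30D lie 4268 bases apart on the minus strand of chromosome 8, with no annotated host gene. Within 10 kb of each hairpin of the family, only these 2 and the pair MIR30E and MIR30C1 had another annotated hairpin. How the authors assigned reads that match several near-identical arms is not given in the sources used here. The split of reads between mir-30a and mir-30e, and between the other close relatives, is therefore uncertain.

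Libraries held 1318923 to 6222790 miRNA counts (median 2299476.5) and 9139 to 33090 counts of 4 added spike-in RNAs. The miR-30 rows were deeply counted in every library. Row mir-30e had a median of 33784 counts per library, mir-30d 29835.5, mir-30a 21435, mir-30c 7460.5 and mir-30b 3220.5, and the lowest single value was 1673 (mir-30b). By total count, mir-30e ranked 13 among the 1513 rows, mir-30d 16, mir-30a 23, mir-30c 49 and mir-30b 73. The 5 rows together made up 3.34% to 5.07% of the miRNA counts of a library. Neither the edit in DGCR8 nor the mRNA of ERH was analysed here, and the group labels therefore had no check of their own. Among 12 miRNAs that mark other cell types, mir-302c (pluripotent cells) was at 0 in 32 of 32 libraries. Row mir-302d was at 0 in 29, mir-302b in 28, mir-206 (muscle) in 23, mir-302a in 17 and mir-451a (blood) in 1. The others were found in every library. The liver miRNA mir-122 had a median of 194 CPM (counts scaled to a common library size) and a range of 73 to 780. Medians were 22.7 CPM for mir-1 and 9.29 for mir-133a (muscle), 9.45 for mir-124 (neurons) and 19.2 for mir-223 (blood). The blood miRNA mir-142 had a median of 274 CPM, and reached 3155 CPM in the library of clone 30 with control shRNA_2. The summed level of the 12 was 339 to 873 CPM in wild-type clones with control shRNAs, 246 to 917 with ERH shRNAs, 282 to 3914 in deletion clones with control shRNAs and 412 to 1644 with ERH shRNAs. Its part in the results was not tested. Of the kidney-rich miRNAs, mir-192 had a median of 1475 CPM, mir-194 515, mir-204 24.1 and mir-30a 9014.

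The clone was the replicate, and the counts of the 2 libraries of a clone and arm were summed, which gave 16 sums. The CPM of the marker and kidney-rich miRNAs above were scaled to total miRNA counts alone. From here on, levels are CPM with TMM scaling, which sets the bulk of miRNA rows level between sums. A TMM change is therefore a change relative to other miRNAs. In bulk RNA, fewer cells of a type and less RNA per cell cannot be told apart. Whether the clones arose from separate editing events is not stated in the sources used here, and each is a single clone grown from the same line.

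Row mir-30a stood at 11848, 11939, 13182 and 13408 CPM in wild-type clones 52, 55, 57 and 67 with control shRNAs. With ERH shRNAs the same clones gave 8298, 8924, 9237 and 10786 CPM. The deletion clones 30, 34, 42 and 43 held 7704, 7740, 8724 and 8500 CPM with control shRNAs, and 5921, 6270, 7782 and 7261 CPM with ERH shRNAs. Every clone was lower with ERH shRNAs, and every deletion clone was below every wild-type clone within each arm. The share of all rows with such a gap between genotypes is given below for the control arm and was not counted for the ERH arm.

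Row mir-30e, the most abundant member, stood at 20231, 24546, 22120 and 21052 CPM in clones 52, 55, 57 and 67 with control shRNAs and at 13323, 15545, 17463 and 18338 CPM with ERH shRNAs. In deletion clones 30, 34, 42 and 43 it held 18188, 13730, 14015 and 10694 CPM with control shRNAs and 13377, 11454, 12707 and 8589 CPM with ERH shRNAs. It too was lower with ERH shRNAs in all 8 clones. The genotypes did not overlap with control shRNAs and overlapped slightly with ERH shRNAs, where deletion clone 30 was just above wild-type clone 52.

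Row mir-30c stood at 4877, 4159, 4711 and 4677 CPM in clones 52, 55, 57 and 67 with control shRNAs and at 3522, 2876, 3283 and 3020 CPM with ERH shRNAs. In deletion clones 30, 34, 42 and 43 the control values were 3618, 2877, 5149 and 2261 CPM and the ERH values 2806, 2994, 2828 and 1841 CPM. The 4 wild-type clones had separate ranges in the 2 arms, as they did for mir-30a and mir-30e. The share of all rows with such a gap between arms was not counted. The deletion clones spread over more than the whole wild-type range with control shRNAs, with clone 42 at the top, and clone 34 was not lower with ERH shRNAs.

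Row mir-30b, the least abundant member, stood at 2498, 1572, 1712 and 1344 CPM in clones 52, 55, 57 and 67 with control shRNAs and at 1513, 1153, 1419 and 953 CPM with ERH shRNAs. In deletion clones 30, 34, 42 and 43 it held 1690, 1159, 2838 and 1119 CPM with control shRNAs and 1460, 1345, 1469 and 859 CPM with ERH shRNAs. Clone 42 again had the highest control value, and clone 34 was the 1 clone that was higher with ERH shRNAs. The genotypes overlapped in both arms.

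Row mir-30d, the partner of mir-30b, stood at 15870, 11820, 22589 and 15519 CPM in clones 52, 55, 57 and 67 with control shRNAs and at 16961, 11072, 13962 and 9927 CPM with ERH shRNAs. In deletion clones 30, 34, 42 and 43 it held 10351, 12083, 12767 and 9392 CPM with control shRNAs and 11924, 9996, 15567 and 10471 CPM with ERH shRNAs. It was lower with ERH shRNAs in 3 of 4 wild-type clones and in 1 of 4 deletion clones. The arms and the genotypes overlapped.

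**Figure D1:**
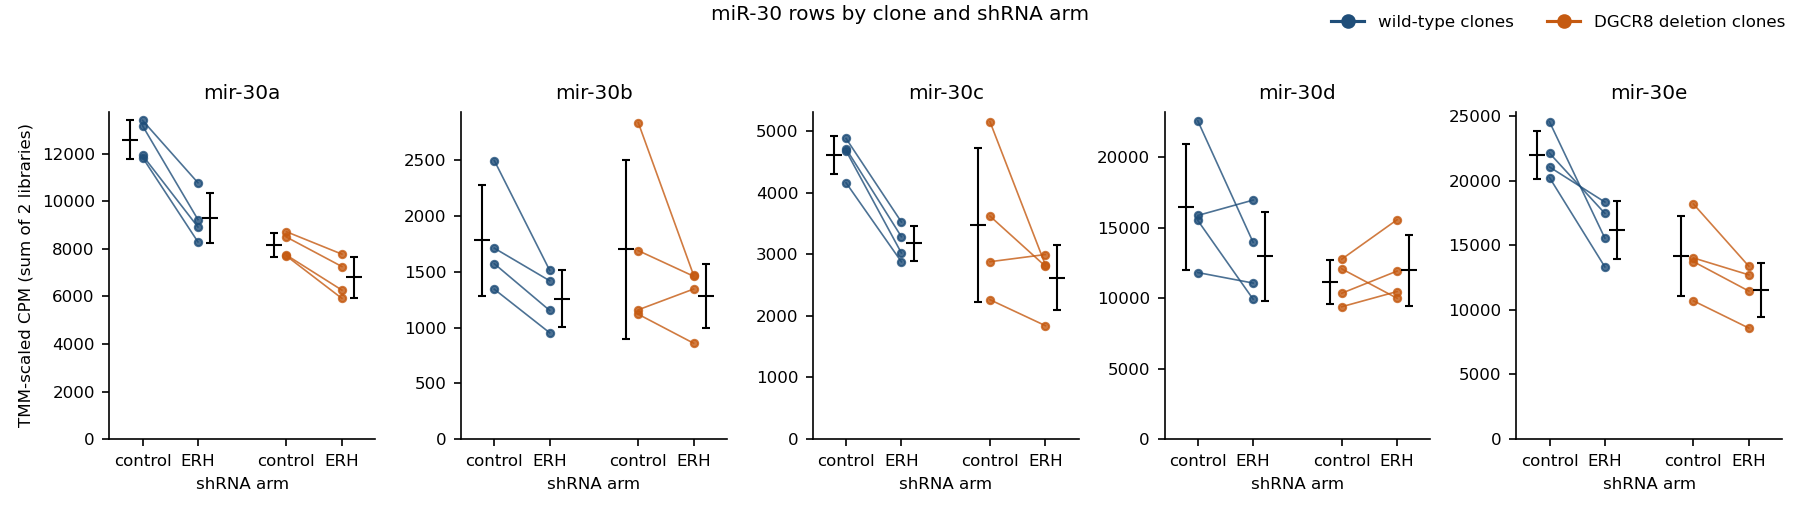
TMM-scaled CPM of each miR-30 row (vertical axis, from 0) in the control and ERH shRNA arms, with 1 line per clone (blue for 4 wild-type clones, orange for 4 deletion clones) and black bars for the mean ± SD of 4 clones. On this scale all 8 clones are lower with ERH shRNAs for mir-30a and mir-30e and 4 of 8 for mir-30d, while with spike-in scaling the fitted change of each row is above 0.

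The question of the knockdown comparison was whether miRNA levels depend on ERH. On the TMM scale 4 of 5 miR-30 rows fell with ERH shRNAs over the 8 clones (edgeR's quasi-likelihood test, clone as block, adjusted p over 667 rows), and on the spike-in scale, given below, the sign of each was the other way. Over all rows tested, 16.5% passed in the lower direction. Row mir-30c fell by 0.45 ± 0.11 on the log2 scale (SE, n = 8 clones, adjusted p = 0.0026), and mir-30b fell by 0.41 ± 0.12 (adjusted p = 0.012). Row mir-30e fell by 0.37 ± 0.094 (adjusted p = 0.0045) and mir-30a fell by 0.35 ± 0.093 (adjusted p = 0.0050). Row mir-30d had a log2 change of -0.12 ± 0.12 (adjusted p = 0.43) and was not called. Being lower in all 8 clones, as mir-30a and mir-30e were, held for 9.6% of the rows tested. Rows mir-30b and mir-30c were each lower in 7 of 8 clones. Leaving out clone 42, the clone with the highest control values of both, ended the call of mir-30b (log2 change -0.31, adjusted p = 0.062). In the fit with all 8 clones, the median of the 5 members was -0.37 against 0.06 over all rows.

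The scale mattered for every member. With counts scaled to the spike-in RNAs, the log2 changes were 0.11 for mir-30a, 0.05 for mir-30b, 0.01 for mir-30c, 0.34 for mir-30d and 0.09 for mir-30e, and none was called. With total miRNA counts they were -0.08, -0.13, -0.18, 0.15 and -0.10, again with no call. The median of all rows moved with the scale, from 0.06 with TMM to 0.52 with the spike-ins and 0.33 with total counts. A change of scale shifts all rows of a sum alike, so the distance of a member from the median row stays nearly the same by construction. With TMM that distance was -0.42 for mir-30a, -0.47 for mir-30b, -0.51 for mir-30c, -0.18 for mir-30d and -0.43 for mir-30e. A correction for the GC content of the hairpins, which moves rows by different amounts, gave -0.30, -0.45, -0.43, -0.10 and -0.31 in the same order. These distances are from the median of all rows tested, also those under a mean of 100 counts. Among the 314 rows with a mean of at least 100 counts, the TMM changes were -0.23, -0.28, -0.33, 0.0072 and -0.24. The median of those 314 rows was 0.0066, so each member lay nearer to it, and mir-30d was level with it. For the 5 rows together, the log2 ratio of counts to spike-in counts was 2.54 ± 0.25 (SD, n = 4) with control and 2.76 ± 0.37 with ERH shRNAs in wild-type clones. In deletion clones it was 2.41 ± 0.45 and 2.51 ± 0.18. These means were higher with ERH shRNAs in both genotypes, by less than the spread between clones.

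Within the wild-type clones only mir-30c was called with TMM scaling, and with the spike-ins its sign was the other way (0.10). It fell by 0.51 ± 0.16 on the log2 scale (SE, n = 4 clones, edgeR adjusted p = 0.021), where 10.4% of 613 rows were called lower. The other 4 had log2 changes of -0.41 (mir-30a), -0.46 (mir-30b), -0.31 (mir-30d) and -0.42 (mir-30e), with adjusted p from 0.053 to 0.16. This count rested on single clones and on the tool: it was 0 without clone 55, without clone 57 or without clone 67, and 4 with DESeq2. Over all rows DESeq2 called 114 of 613 lower. Within the deletion clones none of the 5 was called by edgeR, where 6% of 633 rows were called lower. The log2 changes were -0.27 for mir-30a, -0.34 for mir-30b, -0.37 for mir-30c, 0.09 for mir-30d and -0.30 for mir-30e, with unadjusted p under 0.05 for mir-30a (0.016), mir-30c (0.021) and mir-30e (0.013). DESeq2 called 3 of them (mir-30a, mir-30c and mir-30e), and edgeR without clone 34 also called 3 (mir-30b, mir-30c and mir-30e). Over all rows, DESeq2 called 57 of 633 lower, and edgeR without clone 34 called 64 of 615 lower.

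Whether the knockdown change differed between genotypes was tested as an interaction. None of the 5 passed, and 0% of 667 rows did (edgeR, 127 rows at an unadjusted p under 0.05, and 16 rows called by DESeq2, none of them a miR-30 row). Row mir-30d had the largest difference of the 5, 0.47 ± 0.20 on the log2 scale, with an unadjusted p of 0.031 and an adjusted p of 0.23. It was 0.069 with spike-in scaling (unadjusted p = 0.83), 0.24 with total scaling (0.26), and 0.28 without clone 57 (0.19). The other 4 differences lay between 0.19 and 0.21 with TMM scaling, and their sign turned with spike-in and with total scaling. No member's response was shown to differ between the genotypes, which with 4 clones of each does not show that the responses were alike.

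The deletion of the ERH contact site was compared within each arm, with 4 clones of each genotype. With control shRNAs, mir-30a and mir-30e were lower in deletion clones on the TMM scale, where 7.09% of 536 rows were called lower. Row mir-30a had a log2 difference of -0.61 ± 0.15 (SE, edgeR adjusted p = 0.013), with a level of 12594 ± 815 CPM in the wild-type group and 8167 ± 522 CPM in the deletion group (SD, n = 4 for each). Row mir-30e had a difference of -0.63 ± 0.17 (adjusted p = 0.016), from 21987 ± 1873 CPM in the wild-type group to 14157 ± 3079 CPM in the deletion group. These 2 rows were also those whose genotypes did not overlap with control shRNAs, a pattern that 10.3% of all rows tested showed. Row mir-30d was at -0.55 ± 0.20 (adjusted p = 0.056, and 0.049 with DESeq2, which called it), mir-30c at -0.40 ± 0.23 (adjusted p = 0.20) and mir-30b at -0.08 ± 0.31 (adjusted p = 0.87). The call of mir-30e was lost without clone 43 (adjusted p = 0.065), clone 57 (0.082) or clone 67 (0.062), while mir-30a was called without each of the 8 clones, at adjusted p up to 0.048. Without clone 30, whose control library held most mir-142, the differences were -0.52 for mir-30a and -0.71 for mir-30e, and both were called.

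The same comparison on other scales called no member. With the spike-ins the differences were -0.16 for mir-30a, 0.31 for mir-30b, 0.02 for mir-30c, -0.06 for mir-30d and -0.14 for mir-30e, while the median of all rows was 0.42 in place of -0.03 with TMM. With total counts mir-30a was at -0.18 and mir-30e at -0.21, with a median of 0.39. Relative to the median row, mir-30a was at -0.57 and mir-30e at -0.60 with TMM scaling, and at -0.44 and -0.49 with the GC correction. Among rows with a mean of at least 100 counts, the TMM differences of mir-30a and mir-30e were -0.45 and -0.47, with a median row of -0.02.

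With ERH shRNAs no miR-30 row was called between genotypes, and 0% of 569 rows were (edgeR, 87 rows at an unadjusted p under 0.05, and 8 called by DESeq2). Row mir-30a was at -0.43 ± 0.17 and mir-30e at -0.47 ± 0.19, each with adjusted p = 0.29. The genotypes did not overlap for mir-30a, but the share of all rows with this pattern was not counted in the ERH arm. The other 3 were at 0.05 (mir-30b), -0.25 (mir-30c) and -0.08 (mir-30d). The deletion comparisons and the knockdown comparisons share their control sums, so their values stand side by side and are not independent of each other.

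**Figure D2:**
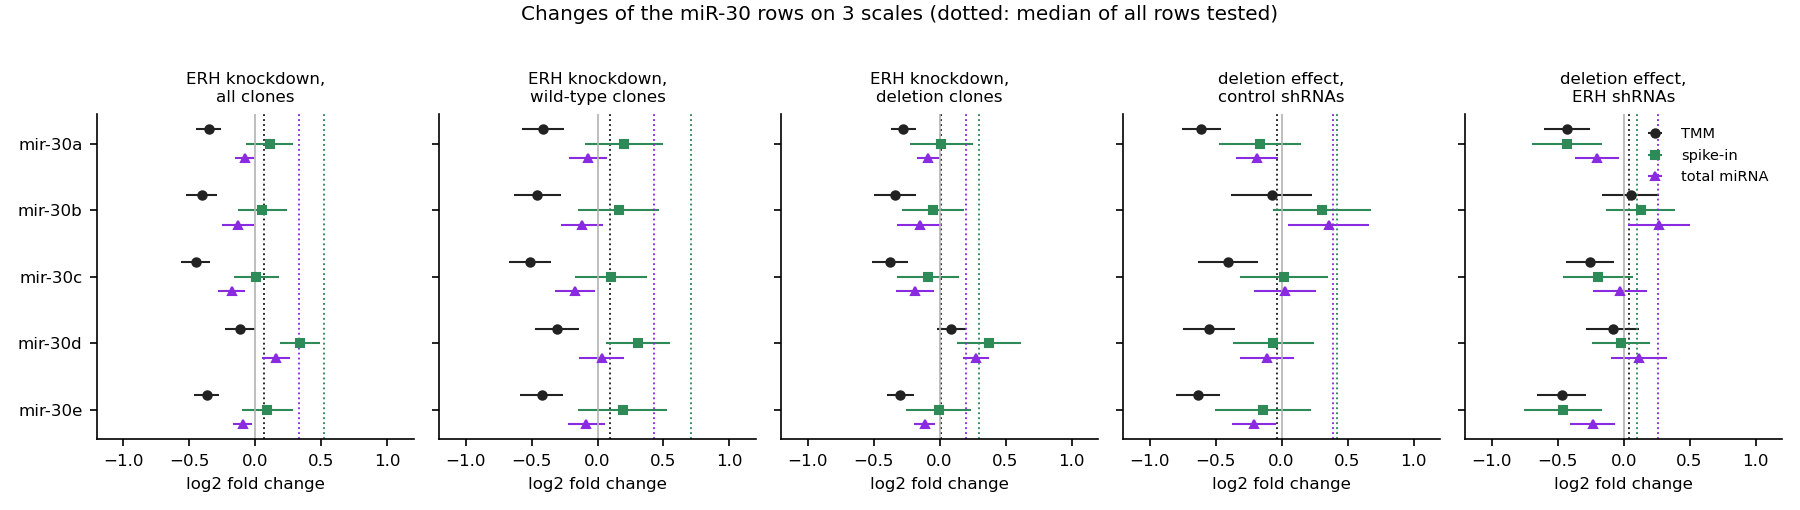
Log2 fold change ± SE of the 5 miR-30 rows (horizontal axis) in 5 comparisons, with TMM (black), spike-in (green) and total miRNA scaling (purple) and the median of all rows tested as a dotted line of the same colour. In the knockdown over all clones every member lies left of the dotted line of its scale, at negative values with TMM and above 0 with the spike-ins.

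Each ERH shRNA was also set against 1 control shRNA in all 8 clones. With shERH_1 against control shRNA_1, 4 of 5 members fell on the TMM scale (edgeR, clone as block), against 12.3% of 586 rows called lower, and with the spike-ins the sign of each was the other way. Row mir-30c fell by 0.52 ± 0.10 on the log2 scale (adjusted p = 0.0010), mir-30b fell by 0.48 ± 0.11 (0.0044), mir-30e fell by 0.38 ± 0.095 (0.0071) and mir-30a fell by 0.34 ± 0.090 (0.0097). Row mir-30d was at -0.0042 ± 0.12, and with the spike-ins it was the 1 member called, 0.53 higher (adjusted p = 0.0070). On that scale 235 of 586 rows were called higher, and the median of all rows was 0.65, above the value of mir-30d. With shERH_2 against control shRNA_2 none of the 5 was called by edgeR, against 6.87% of 582 rows called lower. DESeq2 called 1 of the 5, and 69 of 582 rows lower. The log2 changes with shERH_2 were -0.32 (mir-30a), -0.23 (mir-30b), -0.30 (mir-30c), -0.14 (mir-30d) and -0.31 (mir-30e), with unadjusted p from 0.042 to 0.36. The difference between the 2 ERH shRNAs was not tested. As background, control shRNA_2 against control shRNA_1 gave log2 changes from -0.13 (mir-30a) to 0.15 (mir-30d), and no call among the 5 rows or in 0% of 571 rows (edgeR, 48 rows at an unadjusted p under 0.05, and 1 called by DESeq2).

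Ratios between partners need no scaling between libraries, and they ask whether hairpins of a locus kept their proportion. The log2 ratio of mir-30b to mir-30d, with a pseudocount of 0.5, was -2.67, -2.91, -3.72 and -3.53 in wild-type clones 52, 55, 57 and 67 with control shRNAs and -3.49, -3.26, -3.30 and -3.38 with ERH shRNAs. In deletion clones 30, 34, 42 and 43 it was -2.61, -3.38, -2.17 and -3.07 with control shRNAs and -3.03, -2.89, -3.41 and -3.61 with ERH shRNAs. The change with ERH shRNAs averaged -0.29 ± 0.61 (SD, n = 8 clones) and was below 0 in 5 of 8 clones (exact sign-flip test, two-sided p = 0.24, adjusted p = 0.72 over 12 ratio tests). Single clones ran from -1.24 (clone 42) to 0.49 (clone 34). The wild-type clones drew together under ERH shRNAs, from an SD of 0.50 to 0.10, a description for which no test was made. With shERH_1 alone the change was -0.48, below 0 in 7 of 8 clones (exact p = 0.023, adjusted p = 0.28), and with shERH_2 alone -0.08 (exact p = 0.84).

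The log2 ratio of mir-30c to mir-30e lay between -2.56 and -2.05 in wild-type clones with control shRNAs and between -2.60 and -1.92 with ERH shRNAs. In deletion clones it lay between -2.33 and -2.24 in clones 30, 34 and 43 and at -1.44 in clone 42 with control shRNAs, and between -2.25 and -1.94 with ERH shRNAs. The change with ERH shRNAs was -0.08 ± 0.34 (SD, n = 8 clones, below 0 in 3 of 8, exact sign-flip p = 0.55, adjusted p = 0.72). For mir-30a over mir-30c the log2 ratio was 1.28 to 1.52 in wild-type and 0.76 to 1.91 in deletion clones with control shRNAs, and 1.24 to 1.84 and 1.07 to 1.98 with ERH shRNAs. The change with ERH shRNAs was 0.10 ± 0.31 (SD, n = 8 clones, exact sign-flip p = 0.40, adjusted p = 0.72). Neither ratio shifted beyond the spread between clones.

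Between genotypes no partner ratio separated. With control shRNAs the deletion clones exceeded the wild-type clones by 0.40 for mir-30b to mir-30d (exact permutation test, two-sided p = 0.31), by 0.19 for mir-30c to mir-30e (exact p = 0.60), and the difference was -0.15 for mir-30a to mir-30c (exact p = 0.51). With ERH shRNAs the differences were 0.12 (exact p = 0.46), 0.20 (exact p = 0.31) and -0.15 (exact p = 0.49). The difference in knockdown change between genotypes was -0.28 for mir-30b to mir-30d (exact p = 0.57), 0.01 for mir-30c to mir-30e and 0.00 for mir-30a to mir-30c (exact p = 1 for both). The values of mir-30b to mir-30d rested on single clones. Without clone 42 the difference with control shRNAs was 0.19 and the difference in knockdown change -0.0053, and without clone 34 they were 0.59 and -0.58. Without clone 57 they were 0.23 and -0.084. Adjusted over the 12 ratio tests, each p was 0.72 or 1. The smallest p possible was 0.0078 with 8 clones and 0.029 with 4 against 4, so ratio changes small against the spread of 0.31 to 0.61 between clones could not be resolved.

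**Figure D3:**
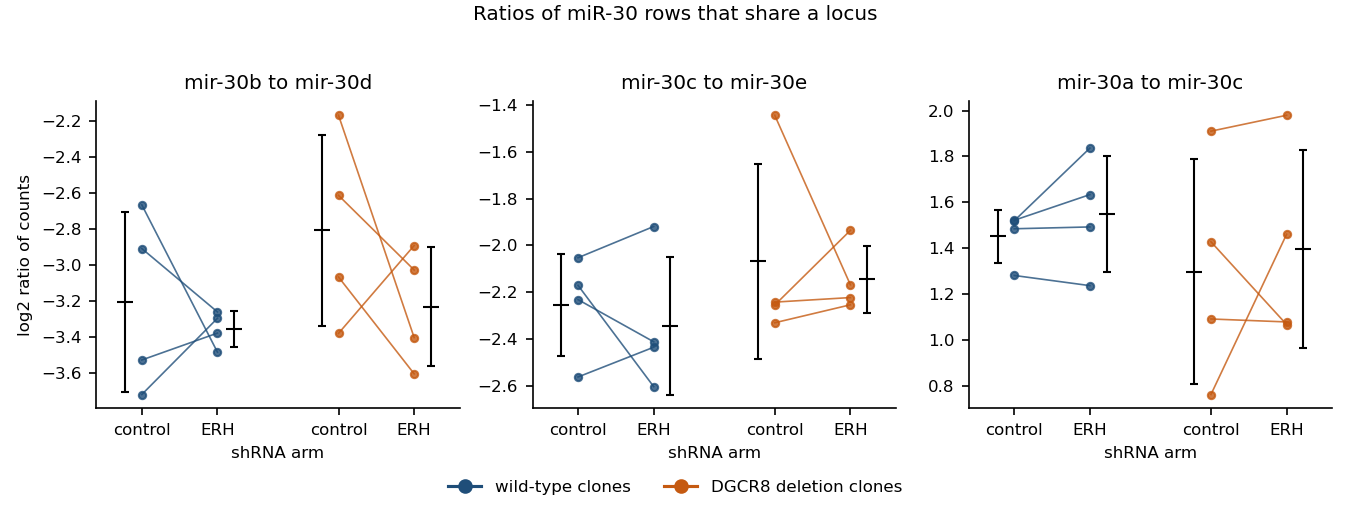
Log2 ratio of counts for the 3 partner pairs (vertical axis) in the control and ERH shRNA arms, with 1 line per clone and black bars for the mean ± SD of 4 clones of each genotype. Lines cross in both genotypes for mir-30b to mir-30d, and clone 42 stands above the other deletion clones with control shRNAs for mir-30c to mir-30e (-1.44).

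The partner ratios can be read beside all hairpins that lie within 10 kb of each other on 1 strand. There were 60 such pairs of 53 rows with mir-30b and mir-30d left out, each row with 1 annotated hairpin and at least 100 mean counts. Among these 60 the median size of the knockdown change in the ratio was 0.22, and 27 pairs had a larger one than mir-30b to mir-30d. In 17 of the 60 pairs all 8 clones changed with the same sign, which none of the 3 miR-30 pairs did. With control shRNAs 12 pairs had a larger genotype difference than mir-30b to mir-30d, against a median size of 0.18, and the genotypes did not overlap in 3 pairs.

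As shares of the summed miR-30 counts, mir-30e and mir-30d supplied most of the family in each group. In wild-type clones mir-30e made up 38.5% ± 4.8 (SD, n = 4) with control and 37.7% ± 5.1 with ERH shRNAs, and mir-30d 28.3% ± 5.4 and 30.2% ± 6.6. In deletion clones mir-30e made up 36.5% ± 5.2 and 33.6% ± 3.7, and mir-30d 28.9% ± 3.0 and 34.9% ± 3.2. The share of mir-30d was higher with ERH shRNAs in 3 of 4 deletion clones and in 2 of 4 wild-type clones. Row mir-30a supplied 20.1% to 22.0% of the family as group means, mir-30c 7.40% to 8.82% and mir-30b 2.93% to 4.29%. In clone 42 with control shRNAs, mir-30b and mir-30c made up 6.52% and 11.8% of the family, and 3.64% and 7.01% with ERH shRNAs. The family as a whole held 4.49% ± 0.21 of all miRNA counts in wild-type clones with control shRNAs and 4.33% ± 0.26 with ERH shRNAs, and 4.09% ± 0.56 and 4.09% ± 0.50 in deletion clones.

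Over the 16 sums, which share clones, the members varied together to different degrees. Pearson's r of log2 CPM was 0.81 for mir-30b with mir-30c and 0.79 for mir-30a with mir-30e, which share no locus. For the partners it was 0.78 (mir-30c with mir-30e), 0.64 (mir-30a with mir-30c) and 0.47 (mir-30b with mir-30d). It was lowest for mir-30a with mir-30b (0.23). The median over all pairs of 314 well-counted rows was 0.01. These values are descriptions, and the study's groups add to each of them.

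The 2 libraries of a clone and arm gave a view, chosen after the values had been seen, in which what both libraries share through genotype, clone and arm cancels. Effects that differ between the 2 shRNAs of an arm do not cancel, and in the ERH arm these include unequal effects of shERH_1 and shERH_2. For each of the 16 clone and arm combinations the log2 CPM with shRNA 1 was subtracted from that with shRNA 2. Rows mir-30b and mir-30c, which share no locus, moved in step: r was 0.92 and Spearman's rho 0.91, with r of 0.95 over the 8 control differences and 0.81 over the 8 ERH differences. Without the 2 differences farthest from the median of mir-30b, r was 0.83. In clone 34 the control libraries differed by -0.67 for mir-30b and -0.56 for mir-30c, and the ERH libraries by 0.61 and 0.49. Of 313 other rows, mir-30c had the highest r with mir-30b. Rows mir-30a and mir-30e, which also share no locus, had r of 0.70 and rho of 0.58, but 0.32 over the control and 0.98 over the ERH differences, and 0.50 without the 2 farthest. In mir-30a the highest r was with mir-503 (0.89), and mir-30e ranked 10.

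Partners at a locus showed no such agreement. In the same differences r was -0.57 for mir-30b with mir-30d (-0.18 without the 2 farthest), -0.40 for mir-30c with mir-30e and -0.45 for mir-30a with mir-30c. Row mir-30d ranked 304 of 313 rows by its r with mir-30b. In clone 34 with control shRNAs, mir-30d differed by 0.72 while mir-30b differed by -0.67. The median r over all pairs of rows was 0.00. Among the 10 pairs of members, the 2 with the highest r, mir-30b with mir-30c and mir-30a with mir-30e, were pairs classed together by the 5p sequence and not by the locus. Row mir-30d, classed with mir-30a and mir-30e by sequence, had r of 0.03 with mir-30a and -0.54 with mir-30e. Each value shares its library, depth and scaling with the value it is set against, no p is given for it, and its cause was not tested.

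**Figure D4:**
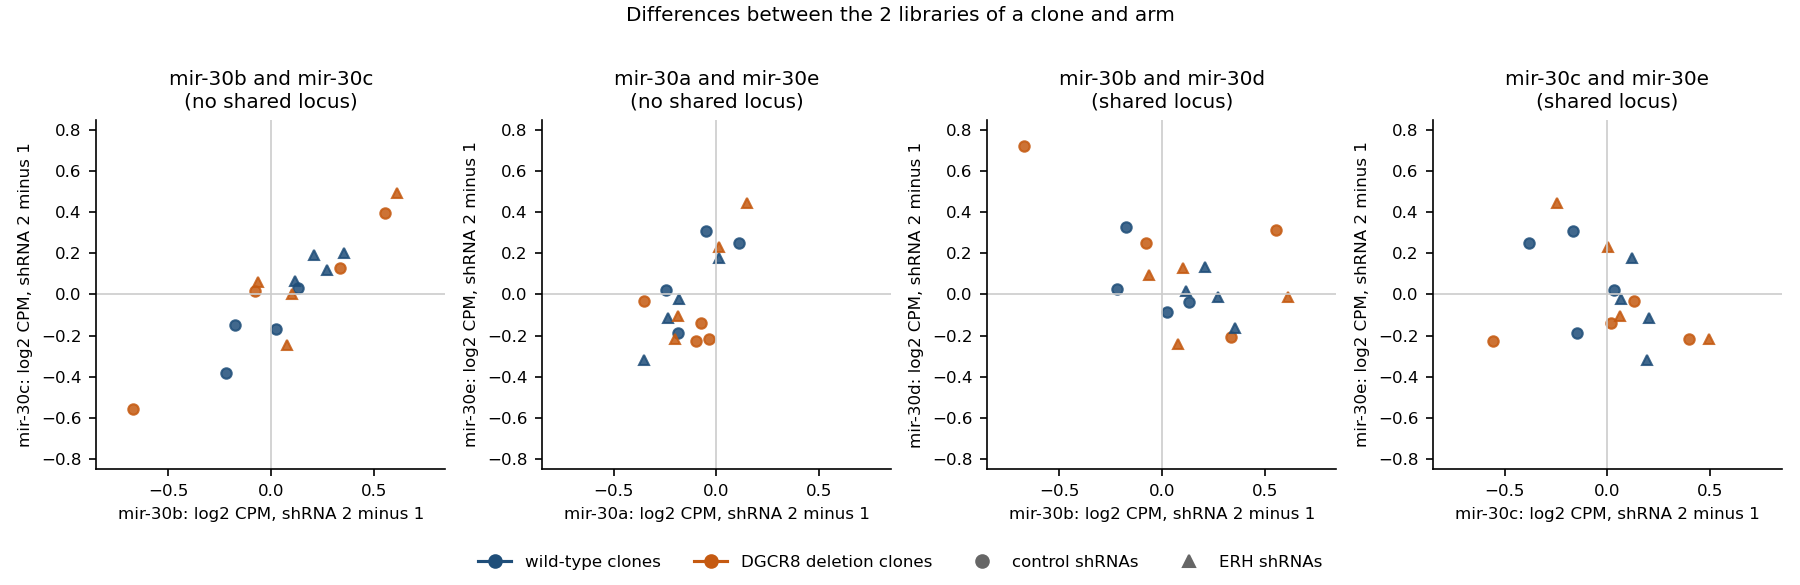
Log2 CPM with shRNA 2 minus shRNA 1 of the same clone and arm, for 4 pairs of miR-30 rows, with 16 points per panel (blue for wild-type and orange for deletion clones, circles for control and triangles for ERH shRNAs). Points of mir-30b and mir-30c lie along a rising line (r of 0.92), and those of the partners mir-30b and mir-30d do not (r of -0.57).

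For each member the 3 rows outside the family most like it over the 16 sums were named, with r of log2 CPM as the measure and 314 rows in all. They were mir-1306 (0.94), mir-24 (0.92) and mir-93 (0.92) for mir-30a, and mir-16 (0.91), mir-126 (0.90) and mir-183 (0.88) for mir-30e. For mir-30b they were mir-5100 (0.87), mir-203a (0.74) and mir-4521 (0.67), and for mir-30c mir-1269b (0.81), mir-574 (0.81) and mir-23b (0.80). For mir-30d they were mir-92b (0.86), mir-125a (0.85) and mir-1226 (0.83). Within the family, mir-30b and mir-30c had r of 0.81 with each other, which for mir-30b was above all of these but mir-5100.

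Other miRNAs known beside miR-30 for the epithelial state or the kidney formed a list of 15. In the knockdown over all clones 14 were tested with TMM scaling, 9 were called lower and 0 higher by edgeR, against 16.5% of all rows called lower, and the median log2 change was -0.49 against 0.06 over all rows. Row mir-192, a kidney and gut miRNA induced by p53, fell by 1.95 ± 0.12 on the log2 scale (adjusted p = 5.2e-12), and mir-29c, of a family that targets collagen genes, fell by 1.37 ± 0.13 (adjusted p = 3.9e-08). The others called were mir-200a, mir-141 and mir-429, of the family that represses ZEB1 and ZEB2, with mir-26a, mir-29a, mir-204 and mir-194. Not called were mir-200b (-0.90) and mir-200c (0.03) of the same family, mir-29b (-0.12), mir-26b (-0.20) and mir-215 (-0.35). The change of mir-429 had an SE of 0.73. With spike-in scaling only mir-29c (-0.92) and mir-192 (-1.49) of the 14 were called lower and mir-200c was called higher, with a list median of -0.04. With total scaling mir-29a, mir-29c and mir-192 were called lower and 0 higher, with a list median of -0.22. In the deletion comparison with control shRNAs 12 were tested, 3 were called lower (mir-26a, mir-26b and mir-204) and 0 higher, against 7.09% of all rows called lower, with a median of -0.44 against -0.03 over all rows. With spike-in and with total scaling none of the 12 was called, and the list medians were 0.09 and -0.03.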

How the data were processed

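The labels' protocols state that RNA was extracted with TRIZOL, mixed with 4 spike-in RNAs and made into libraries with the QIAGEN QIAseq miRNA kit. The authors deposited raw read counts per precursor name, per the file headers, and SAMtools is named in the submitters' processing notes. The aligner, the genome build, the annotation and any use of molecular identifiers are not given in the sources used here. Without such identifiers, copies made by PCR would be counted as molecules, and the counting error would exceed what the counts give. From its precursor name, each row is taken to hold both arms of a hairpin and all its copies. Counting precision differs with depth (1318923 to 6222790 miRNA counts per library).

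The 2 libraries of a clone and arm were summed. Sums were tested with edgeR 4.0.16 (R 4.3.3) by the quasi-likelihood test after filterByExpr and TMM scaling over miRNA rows, with Benjamini-Hochberg adjusted p under 0.05 called. Knockdown and interaction fits had the clone as block, which pairs the sums by the labels. Deviations of the paired sums from their group means correlated at 0.42 to 0.86 in the 8 clones over 314 rows. Genotypes were compared as 4 against 4 clones without a block. Partner ratios were tested by exact sign-flip and exact permutation tests, two-sided. Every single-shRNA comparison used its own control libraries. Row names were matched to GENCODE 29 by symbol (1427 of 1513 rows), and the edgeR step was tested on simulated counts. No pair of libraries within a group agreed within sampling noise (chi-square per degree of freedom at least 75.4 in 48 pairs), and 0 columns lacked a sample.

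The members were named in every comparison, called or not, and for likeness the 3 rows outside the family with the highest r. Members, lists and tests were chosen with earlier results of these data known. The differences between the 2 libraries of an arm were added after the values were seen. Alternatives were DESeq2 1.42.0, other scaling, filters and pseudocounts, a GC correction, fits without the block, each library as its own sample, 1 fit over all sums, single shRNAs and leaving out each clone. P-values measure the spread between these clones. Those of the fits with each library as its own sample do not, as the 2 libraries of a clone and arm there count as separate replicates.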

Additional observations from a re-analysis of the deposited data

Results flagged for a closer look

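In 48 groups of 4 clones (levels, ratios and their changes), 3 had 1 clone far from the other 3 relative to the range of the group, where chance alone flags about 1 in 20 groups. In deletion clones with ERH shRNAs, mir-30c was at 1841 CPM in clone 43 and between 2806 and 2994 CPM in the other 3. In deletion clones with control shRNAs, the log2 ratio of mir-30c to mir-30e was -1.44 in clone 42 and between -2.33 and -2.24 in the others. In wild-type clones with control shRNAs, the log2 ratio of mir-30a to mir-30c was 1.28 in clone 52 and between 1.48 and 1.52 in the others. In clone 42 the high mir-30c was seen in both control libraries, at 4391 CPM with control shRNA_1 and 5788 CPM with control shRNA_2, as was the high mir-30b, at 2255 and 3311 CPM. The cause was not tested.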

How the results depend on the processing

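Most values kept their direction, and scaling was the choice that turned most of them. The number of the 5 members called in the knockdown over all clones was 4, and 0 with spike-in scaling, 0 with total scaling and 0 with no replicate block. It was 3 with a mean of at least 100 counts, where mir-30b was at -0.28 (adjusted p = 0.063) and 53 of 314 rows were called lower. It was 1 in wild-type clones, and 0 with spike-in scaling, total scaling, no filter or no replicate block, 2 with a mean of at least 100 counts, 4 with DESeq2, with the GC correction under the replicate block or with 1 fit over all sums, and 5 with each library as its own sample. Over all rows, 114 of 613 were called lower there with DESeq2, 106 of 579 with the GC correction and 48 of 300 with a mean of at least 100 counts. With 1 fit they were 106 of 667, and with each library as its own sample 105 of 496. The latter setting counts the 2 libraries of a clone and arm as separate replicates, here and below. In deletion clones the number of members called was 0, and 3 with DESeq2, 1 with no filter and 2 with each library as its own sample. In the same order, 57 of 633, 55 of 1190 and 50 of 547 of all rows were called lower. The deletion comparison with control shRNAs had 2, and 0 with spike-in scaling, total scaling or no filter, 3 with DESeq2 and 4 with each library as its own sample. Over all rows, DESeq2 called 69 of 536 lower there, and the fit with each library as its own sample 99 of 441. With ERH shRNAs the deletion comparison had 0, and 2 with each library as its own sample, where 14 of 464 rows were called lower. With shERH_1 alone the number was 4, and 1 with spike-in scaling, total scaling or no replicate block. In the same order, 254 of 586, 206 of 586 and 52 of 455 of all rows were called in either direction. With shERH_2 alone the number of members called was 0, and 1 with DESeq2, where 69 of 582 rows were called lower. Leaving out each clone gave 0 to 1 in wild-type clones, 0 to 3 in deletion clones and 1 to 3 in the deletion comparison with control shRNAs. The fits with 3 called were those without clone 34 in deletion clones (64 of 615 rows called lower) and without clone 42 (27 of 553) or 55 (35 of 572) in the deletion comparison. The call in wild-type clones was made without clone 52 (68 of 587 rows called lower). The fits with 1 called in the deletion comparison were those without clone 43 (23 of 556), 57 (13 of 569) or 67 (16 of 573).

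Signs turned with spike-in scaling in the knockdown over all clones (mir-30a 0.11, mir-30b 0.053, mir-30c 0.0078, mir-30d 0.34, mir-30e 0.090), in wild-type clones (0.20, 0.16, 0.10, 0.31 and 0.19 in the same order) and in deletion clones for mir-30a (0.015). They turned likewise with shERH_1 (0.19, 0.052, 0.014, 0.53 and 0.16), with shERH_2 for mir-30b (0.046) and mir-30d (0.13), between control shRNAs for mir-30a (0.0035), mir-30b (0.11), mir-30c (0.037) and mir-30e (0.092), in the deletion comparison with control shRNAs for mir-30b (0.31) and mir-30c (0.021), and in the interaction for mir-30a (-0.19), mir-30b (-0.21), mir-30c (-0.19) and mir-30e (-0.20). Total scaling turned mir-30d over all clones (0.15), in wild-type clones (0.032), with shERH_1 (0.26), with shERH_2 (0.072) and in the deletion comparison with ERH shRNAs (0.12), mir-30b (0.36) and mir-30c (0.026) in that with control shRNAs, mir-30b between control shRNAs (0.015), and the interaction of mir-30a (-0.015), mir-30b (-0.033), mir-30c (-0.0145) and mir-30e (-0.026). A mean of at least 100 counts turned mir-30d over all clones (0.0072) and with shERH_1 (0.0717) and mir-30b in the deletion comparison with control shRNAs (0.080), and no filter turned mir-30d with shERH_1 (0.0261). In the deletion comparison with ERH shRNAs mir-30b was at -0.038 with DESeq2 and -0.020 with the second shRNA alone. With no replicate block the control comparison turned for mir-30b (0.057) and mir-30e (0.0080). Single shRNAs turned the ratio of mir-30c to mir-30e (knockdown 0.0147 with shRNA 2, deletion with control -0.055 with shRNA 1, difference -0.30 with shRNA 2) and of mir-30a to mir-30c (knockdown -0.023 with shRNA 2, difference -0.20 with shRNA 1). The cause was not tested.

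Leaving out each clone gave signs of both kinds for mir-30b in the deletion comparison with control (-0.44 to 0.14) and ERH shRNAs (-0.095 to 0.16), in the interaction (-0.058 to 0.39) and between control shRNAs (-0.15 to 0.071), and for mir-30d with ERH shRNAs (-0.30 to 0.076) and with shERH_1 (-0.10 to 0.091). It did so for the ratio of mir-30c to mir-30e (knockdown -0.14 to 0.0090, deletion with control -0.022 to 0.27, difference -0.12 to 0.23) and of mir-30a to mir-30c (deletion with control -0.36 to 0.025, difference -0.20 to 0.15). The ratio of mir-30b to mir-30d kept its sign without each clone (knockdown -0.40 to -0.15, deletion with control 0.19 to 0.59, deletion with ERH 0.0097 to 0.25, difference -0.58 to -0.0053). No block could be used between genotypes, which hold different clones, and 1 fit over all sums is the design of the interaction itself, so neither was run as an alternative there. With 4 clones a genotype, the comparisons rest on the spread between clones. How much of that spread came from single libraries or from counting was not tested.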

Other observations

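Some values of mir-30d are given here beside those of other members, with no test of the difference between members. On the spike-in scale its log2 change was 0.53 with shERH_1, which was called, and 0.13 with shERH_2, which was not. With shERH_1, 235 of 586 rows were called higher on that scale. The median of all rows was 0.65 with shERH_1 and 0.34 with shERH_2, so mir-30d was below the median row with each. Per spike-in count, the log2 level of mir-30d went from 0.70 ± 0.20 (SD, n = 4) to 1.00 ± 0.17 in wild-type clones and from 0.61 ± 0.36 to 0.99 ± 0.17 in deletion clones. The corresponding values of mir-30a were 0.35 ± 0.24 and 0.55 ± 0.52, and 0.17 ± 0.36 and 0.18 ± 0.088. Between the 2 libraries of a clone and arm the median size of the log2 difference was 0.13 for mir-30d, the smallest of the 5, and 0.16 to 0.20 for the others. The largest single difference of the 5 rows was also in mir-30d, 0.72 in clone 34 with control shRNAs.

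Over the 16 sums the log2 ratio of mir-30b to mir-30c had an SD of 0.27 and that of mir-30a to mir-30e 0.26, against 0.42 for the partners mir-30b and mir-30d, 0.28 for mir-30c and mir-30e, and 0.33 for mir-30a and mir-30c. The log2 ratio of mir-30a to mir-30b varied most, with an SD of 0.50.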
